A study of Mus musculus with 6 samples.

Results

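Rab GTPase genes were followed by mRNA sequencing in B16F10, an established mouse melanoma line. The rule took every row whose symbol is Rab, a number and at most 1 letter and 1 further digit, which gave 49 of the 15726 genes in the table. Rab27a, Rab32 and Rab38, the Rab genes of pigment granules, were left out by the rule. The study set 3 libraries of cells exposed for 8 h to 50 μg/mL of rPPAA18C6@Dox against 3 libraries of cells kept as long in medium with PBS. From the title, the study concerns a nanoplatform built on a potassium ionophore, and the samples are named by the code alone. Both groups are the same cell line with no other treatment in the labels, which do not state that the 3 libraries of a group were separate cultures. The p-values therefore measure only the spread among these libraries, and that spread may be technical. Columns for PBS bear that name, whereas the columns read as rPPAA18C6@Dox bear a letter not explained in the labels and were assigned by elimination. The sign of every difference rests on that reading.

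Rab proteins are small GTPases that give membranes their identity. Anchored by prenyl groups and bound to GTP, they recruit effectors such as tethers, motors and sorting proteins. Exchange factors switch them on and GTPase activating proteins switch them off. All 49 genes are annotated as protein coding in RefSeq. By their best known site of action 22 were placed in an endosome group, 13 in a Golgi group that includes traffic with the endoplasmic reticulum (ER), 8 in a secretory group and 6 in a group of other roles.

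Values are FPKM, reads per gene divided by gene length and library depth, so levels can be compared between genes only as far as the authors' gene lengths hold. The length implied by the values is well above the longest GENCODE vM21 transcript for Rab2a (15.5 kb against 2.13 kb) and Rab30 (36.7 kb against 9.46 kb). The same holds for Rab33a (4.20 kb against 1.16 kb) and Rab37 (6.49 kb against 2.61 kb), so FPKM understates these genes beside the others. The libraries held 36380462 to 37067116 reads, worked out from the steps of the values. The 7 melanocyte markers, all of them tested, summed to 7198 to 7228 FPKM in rPPAA18C6@Dox libraries and to 6145 to 6233 FPKM in PBS libraries. Of 5 fibroblast markers 4 were analysed, with sums of 1.77 to 1.88 FPKM in rPPAA18C6@Dox libraries and 1.84 to 2.20 FPKM in PBS libraries. Immune, endothelial and keratinocyte markers were not analysed here. Fewer cells of a kind and less RNA per cell cannot be told apart in bulk RNA, and the part of the marker shift in the results below was not tested.

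Rab genes were called no more often than all tested genes. Testing required a mean of at least 1 FPKM in rPPAA18C6@Dox or PBS cells, which kept 40 Rab genes and left out 9. Rab5b and Rab1a rose, Rab11b fell and 37 did not pass an adjusted p of 0.05 in limma (Benjamini-Hochberg over all tested genes). The 3 calls are 7.50% of the tested Rab genes, where 9.93% of all 10680 tested genes were called, so the share was no higher than the background. By direction, the 2 higher Rab genes stand beside 4.66% of all genes called higher, and the 1 lower Rab gene beside 5.26% called lower. The median log2 fold change of the 40 was -0.005, against -0.01 over all tested genes. Rab7b, with a mean of 0.875 FPKM in rPPAA18C6@Dox cells and 1.08 FPKM in PBS cells, passed the filter through its PBS mean alone. In 16 of the 40 the groups did not overlap, against 31.3% of all tested genes.

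Promoters are shown for the 3 genes that passed and for the 2 other Rab5 genes, so that the Rab5 trio can be compared. They run from 250 bases before to 50 bases after the RefSeq start, in build GRCm38.p6, and read 5′ to 3′ on the strand of the gene. Capitals mark every match on either strand to the E-box core CACGTG, the M-box core TCATGTG, the cAMP response element TGACGTCA, its short form TGACG, the AP-1 site TGACTCA or the ER stress element. The short form lies within the full cAMP response element, and matches can overlap.
Rab5b promoter, chr10:128696219-128696518, minus strand: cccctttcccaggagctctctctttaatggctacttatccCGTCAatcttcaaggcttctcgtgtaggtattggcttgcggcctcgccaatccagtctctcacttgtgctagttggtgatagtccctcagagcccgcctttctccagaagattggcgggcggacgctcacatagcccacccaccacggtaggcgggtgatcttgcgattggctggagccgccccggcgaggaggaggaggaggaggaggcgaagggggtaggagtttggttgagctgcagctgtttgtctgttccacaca
Rab5a promoter, chr17:53478984-53479283, plus strand: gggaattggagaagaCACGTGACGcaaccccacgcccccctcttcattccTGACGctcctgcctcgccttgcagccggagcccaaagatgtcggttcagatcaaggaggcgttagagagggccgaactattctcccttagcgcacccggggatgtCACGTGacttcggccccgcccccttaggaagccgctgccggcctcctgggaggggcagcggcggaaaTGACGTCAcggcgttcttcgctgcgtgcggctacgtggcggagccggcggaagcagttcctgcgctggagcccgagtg
Rab5c promoter, chr11:100738166-100738465, minus strand: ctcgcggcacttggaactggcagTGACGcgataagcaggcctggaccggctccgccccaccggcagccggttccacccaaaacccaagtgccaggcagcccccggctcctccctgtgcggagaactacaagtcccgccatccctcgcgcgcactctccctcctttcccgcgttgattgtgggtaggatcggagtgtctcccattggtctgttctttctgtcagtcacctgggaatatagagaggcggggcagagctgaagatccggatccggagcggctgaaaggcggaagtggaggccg
Rab1a promoter, chr11:20201162-20201461, plus strand: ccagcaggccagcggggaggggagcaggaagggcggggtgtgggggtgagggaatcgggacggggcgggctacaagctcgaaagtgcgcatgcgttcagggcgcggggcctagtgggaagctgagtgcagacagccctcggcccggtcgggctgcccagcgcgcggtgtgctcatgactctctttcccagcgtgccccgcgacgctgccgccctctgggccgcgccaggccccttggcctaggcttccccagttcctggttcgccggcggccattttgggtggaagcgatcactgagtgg
Rab11b promoter, chr17:33760437-33760736, minus strand: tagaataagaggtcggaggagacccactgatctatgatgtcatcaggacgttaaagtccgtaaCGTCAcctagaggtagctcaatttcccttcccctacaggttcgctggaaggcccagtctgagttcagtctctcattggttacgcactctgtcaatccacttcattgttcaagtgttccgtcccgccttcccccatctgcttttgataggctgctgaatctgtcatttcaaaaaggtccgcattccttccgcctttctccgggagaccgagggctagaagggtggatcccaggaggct

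A promoter entry matched 41 of the 49 Rab genes, with 52 promoters in all. CACGTG, the E-box core of lysosomal gene promoters, was in 9.62% of these 52 and in 7.15% of all 32851 promoters in the table. TCATGTG, an M-box core bound by MITF, was in 5.77% of them, against 3.77% of all. TGACTCA, the AP-1 site, was in 5.77% of the Rab promoters, against 5.20% of all, and TGACGTCA, the cAMP response element, in 3.85%, against 1.79%. The short TGACG was in 46.2% of the Rab promoters and in 20.8% of all. The median share of G and C was 63.0% in Rab promoters and 52.7% in all promoters. None of the 52 held the ER stress element, which 0.119% of all promoters hold. Among the 5 promoters printed above, that of Rab5a held both the E-box core and the full cAMP response element. Those of Rab5b, Rab5c and Rab11b held the short form alone, and that of Rab1a held no match. A match or its absence describes these letters only.

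Rab5b, 1 of the 3 GTPases that drive fusion of early endosomes, had the smallest adjusted p of the 40 tested Rab genes. Its log2 fold change was the largest of the 40 on the FPKM + 1 scale, which understates changes of low genes such as Rab7b. Rab5b had 42.3, 43.0 and 41.99 FPKM in rPPAA18C6@Dox libraries, against 34.0, 35.6 and 35.1 FPKM in PBS libraries. Every treated library lay above every PBS library. The mean was 42.4 ± 0.530 FPKM in rPPAA18C6@Dox cells and 34.9 ± 0.809 FPKM in PBS cells (SD, n = 3 each), 21.5% higher, with a log2 fold change of 0.27 (SE 0.0275, adjusted p = 0.000251 in limma). In the authors' deposited table its p-value was 8.30e-20.

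The 2 other Rab5 genes did not pass. Rab5c, the most abundant of the trio, had 121, 121 and 123 FPKM in rPPAA18C6@Dox libraries, against 121, 123 and 121 FPKM in PBS libraries (log2 fold change -0.004, 95% interval -0.05 to 0.05, adjusted p = 0.936 in limma). Rab5a had 17.7, 18.0 and 19.0 FPKM in treated libraries and 18.6, 19.0 and 17.8 FPKM in PBS libraries (-0.02, 95% interval -0.10 to 0.065, adjusted p = 0.807 in limma). The groups overlapped for either gene. Rab5b made up 23.4%, 23.6% and 22.8% of the summed FPKM of the 3 genes in rPPAA18C6@Dox libraries, against 19.6% to 20.2% in PBS libraries, with no overlap. Rab5a overlaps Pp2d1 on the other strand and has an annotated pseudogene, Rab5a-ps, so its reads may be mixed.

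The neighbours of Rab5b on 1 side rose too. In RefSeq (GRCm38.p6) the span of Rab5b overlaps that of Pmel, the melanosome matrix gene, and the next protein-coding gene on that side is Cdk2. Pmel had 185377, 184918 and 185326 reads in rPPAA18C6@Dox libraries and 157015, 156331 and 151621 reads in PBS libraries. Rab5b had 6917, 7062 and 6871 reads in rPPAA18C6@Dox libraries and 5634, 5849 and 5708 reads in PBS libraries. The log2 fold changes of Pmel (0.26, SE 0.0213, adjusted p = 6.79e-05 in limma) and Cdk2 (0.39, SE 0.0226) stood beside the 0.27 of Rab5b. Suox, the neighbour on the other side, had 2.86, 2.91 and 3.04 FPKM in treated libraries and 3.35, 3.02 and 3.13 FPKM in PBS libraries and did not pass (-0.08, adjusted p = 0.346 in limma). Whether the authors counted by strand is not known here, and the part of Pmel reads in the Rab5b result was not tested. In GENCODE vM21 no exon of another gene overlaps those of Rab5b. The length implied by its values is 4.47 kb, against 3.18 kb for its longest GENCODE vM21 transcript. The authors' gene model of Rab5b may therefore reach beyond these exons, which was not tested. Implied and longest GENCODE vM21 lengths differ for its neighbours too: 3.30 kb against 2.13 kb for Pmel and 1.34 kb against 3.26 kb for Cdk2.

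**Figure D1:**
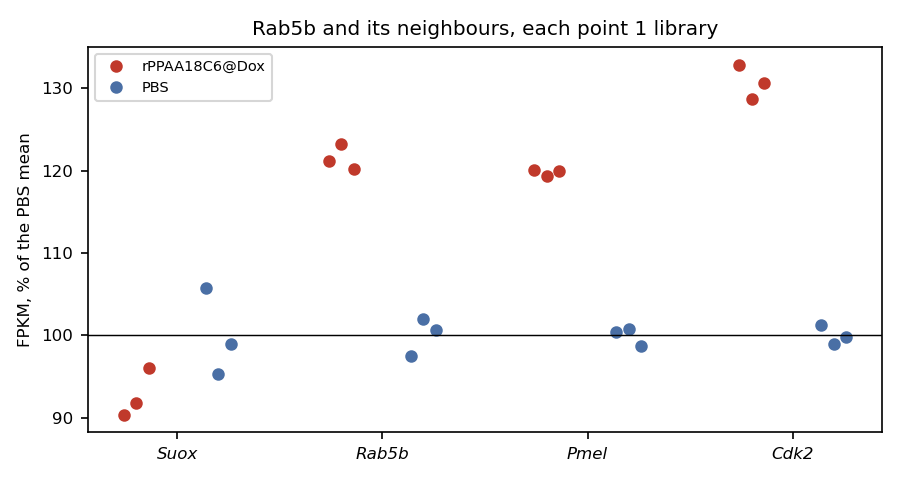
FPKM of Rab5b and its neighbours Suox, Pmel and Cdk2 in each of the 6 libraries, as a percentage of the gene's PBS mean (the axis does not start at 0). All rPPAA18C6@Dox points of Rab5b, Pmel and Cdk2 lie above the PBS points, and the groups overlap for Suox.

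Of the 18 tested endosome Rabs 1 rose, 1 fell and 16 did not pass, with a median log2 fold change of -0.03. The share called was 11.1%, against 9.93% of all tested genes. The one that fell was Rab11b, a GTPase of the recycling endosome, from which receptors return to the surface. Rab11b had 8.07, 7.18 and 7.65 FPKM in rPPAA18C6@Dox libraries, against 8.73, 8.73 and 8.62 FPKM in PBS libraries. The groups did not overlap, and treated replicate 2 was the lowest library. The log2 fold change was -0.17 (SE 0.0435, adjusted p = 0.0383 in limma). Without treated replicate 2 it was -0.13 with an adjusted p of 0.109 in limma, and the call was also lost without treated replicate 3 or without any 1 PBS library (adjusted p 0.0886 to 0.102). Its more abundant relative Rab11a had 43.6, 44.6 and 45.5 FPKM in treated libraries and 46.7, 45.6 and 45.7 FPKM in PBS libraries (-0.04, 95% interval -0.10 to 0.02). An annotated pseudogene, Rab11b-ps2, and Gm17251, which overlaps exons of Rab11b on the other strand, leave the source of its reads uncertain.

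In 8 of the 18 tested endosome genes the treated libraries all lay below the PBS libraries, and in 2 they all lay above. The 8 include Rab7b, which passed the filter through its PBS mean alone, so the filter favoured a lower treated value there. Over all tested genes 18.7% lay wholly below and 12.6% wholly above. Rab4b, a GTPase of fast recycling, had the smallest p of the endosome genes that did not pass. It had 20.6, 20.9 and 22.0 FPKM in rPPAA18C6@Dox libraries, against 24.5, 22.3 and 23.4 FPKM in PBS libraries (log2 fold change -0.14, SE 0.0398, adjusted p = 0.0533 in limma). Rab4b shares exon positions on its own strand with Gm21983, so its reads may be mixed. The paralog Rab4a had 18.0, 16.6 and 16.8 FPKM in treated libraries and 17.4, 18.2 and 15.8 FPKM in PBS libraries, with overlap (0.001, 95% interval -0.11 to 0.11).

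Rab7, which takes cargo from late endosomes to lysosomes, had the highest FPKM of the 49 Rab genes and made up 16.5% of their summed FPKM. Rab38, left out by the rule, was higher, with means of 209 FPKM in rPPAA18C6@Dox cells and 204 FPKM in PBS cells. Rab7 had 188, 189 and 188 FPKM in rPPAA18C6@Dox libraries, against 183, 184 and 186 FPKM in PBS libraries (log2 fold change 0.03, 95% interval -0.02 to 0.08, adjusted p = 0.387 in limma). Rab14, which works between early endosomes and the trans-Golgi network, had 84.9, 84.3 and 83.2 FPKM in treated libraries and 87.6, 88.1 and 88.4 FPKM in PBS libraries (-0.065, 95% interval -0.115 to -0.015, adjusted p = 0.0970 in limma). Neither passed, although the groups did not overlap for either gene. Rab13, of recycling to cell junctions, averaged 8.15 ± 0.0434 FPKM in rPPAA18C6@Dox cells and 8.97 ± 0.566 FPKM in PBS cells (SD, n = 3 each). Rab12, Rab31 and Rab7b also lay below their PBS libraries, with log2 fold changes of -0.06, -0.05 and -0.15, and did not pass. Rab21, of integrin uptake, Rab22a, Rab35, Rab20 and Rab9 overlapped between groups, with log2 fold changes between -0.055 (Rab9) and 0.05 (Rab21).

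**Figure D2:**
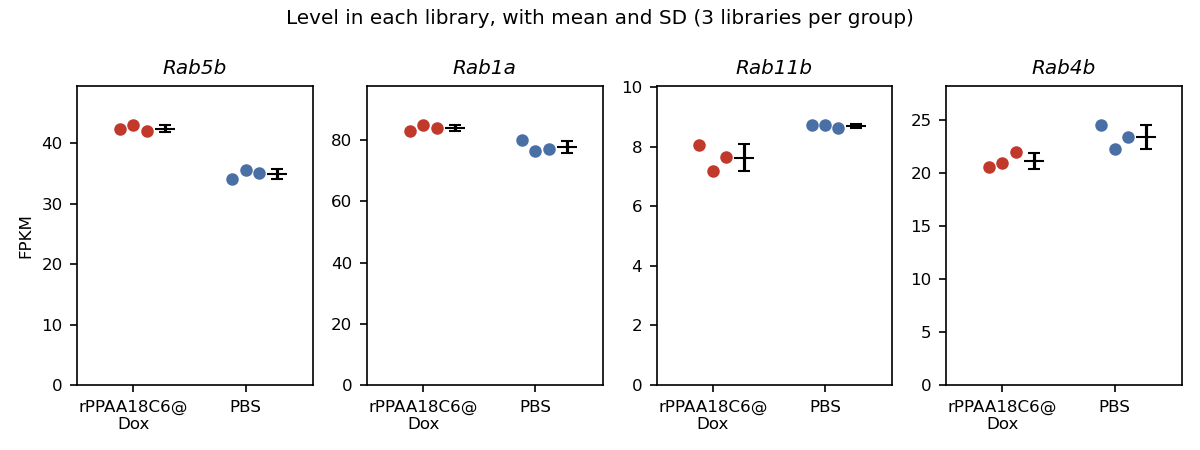
FPKM of Rab5b, Rab1a, Rab11b and Rab4b in each library (points), with the mean and SD beside them (3 libraries per group). The groups do not overlap in any of the 4 genes, and Rab4b did not pass the test.

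In the Golgi group Rab1a, which moves vesicles from the ER to the Golgi, rose and the other 10 tested genes did not pass. The share called was 9.09%, against 9.93% of all tested genes. Rab1a had 83.0, 84.9 and 84.0 FPKM in rPPAA18C6@Dox libraries, against 80.1, 76.4 and 77.0 FPKM in PBS libraries. All treated libraries were higher, by 7.91% in the mean, with a log2 fold change of 0.11 (SE 0.0261, adjusted p = 0.0290 in limma). The call was lost in limma without any 1 treated library and without PBS replicate 2 or 3 (adjusted p 0.0517 to 0.106). Rab1b, with the same role, had 51.9, 49.2 and 53.1 FPKM in treated libraries and 54.8, 53.1 and 54.4 FPKM in PBS libraries (-0.07, 95% interval -0.14 to -0.003, adjusted p = 0.174 in limma). Rab1a was 61.5%, 63.3% and 61.3% of the pair's FPKM in rPPAA18C6@Dox libraries and 59.4%, 59.0% and 58.6% in PBS libraries.

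Rab6a, of transport within and out of the Golgi, had 46.4, 47.2 and 47.3 FPKM in rPPAA18C6@Dox libraries, against 45.4, 46.2 and 45.7 FPKM in PBS libraries (log2 fold change 0.04, 95% interval -0.02 to 0.09, adjusted p = 0.392 in limma). Mrpl48 overlaps its exons on the other strand. Its relative Rab6b averaged 4.38 ± 0.186 FPKM in rPPAA18C6@Dox cells and 4.12 ± 0.356 FPKM in PBS cells (SD, n = 3 each), with overlap. Rab18, of ER structure and lipid droplets, had 22.0, 22.0 and 23.3 FPKM in treated libraries and 21.1, 21.8 and 21.3 FPKM in PBS libraries and did not pass (0.07, adjusted p = 0.237 in limma). Rab29, which recruits the kinase LRRK2 to the trans-Golgi network, averaged 5.31 ± 0.150 FPKM in rPPAA18C6@Dox cells and 5.96 ± 0.591 FPKM in PBS cells (SD, n = 3 each) and did not pass (adjusted p = 0.174 in limma). Rab2a, Rab2b, Rab33b, Rab39b and Rab43 overlapped between groups, with log2 fold changes from -0.02 (Rab39b) to 0.02 (Rab33b). The summed FPKM of the 13 Golgi genes was 248, 246 and 252 in rPPAA18C6@Dox libraries and 246, 240.4 and 243 in PBS libraries, with overlap.

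Rab30, a Golgi Rab, stayed below the filter, with the long gene length given above. It had 575, 602 and 611 reads in rPPAA18C6@Dox libraries, against 481, 457 and 421 reads in PBS libraries. Every treated library was higher, by 31.9% in the mean FPKM. With limma's voom on the recovered reads, for genes with a mean of at least 10 reads, it passed (log2 fold change 0.40, adjusted p = 0.000416). With limma on log2(FPKM + 1) and no filter it did not (adjusted p = 0.0669). In the authors' deposited table its p-value was 1.98e-06. The gene and this voom setting were chosen after the values were seen. That setting called 12.4% of 13101 genes, and among 48 Rab genes it called Rab30, Rab5b, Rab1a and Rab11b.

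**Figure D3:**
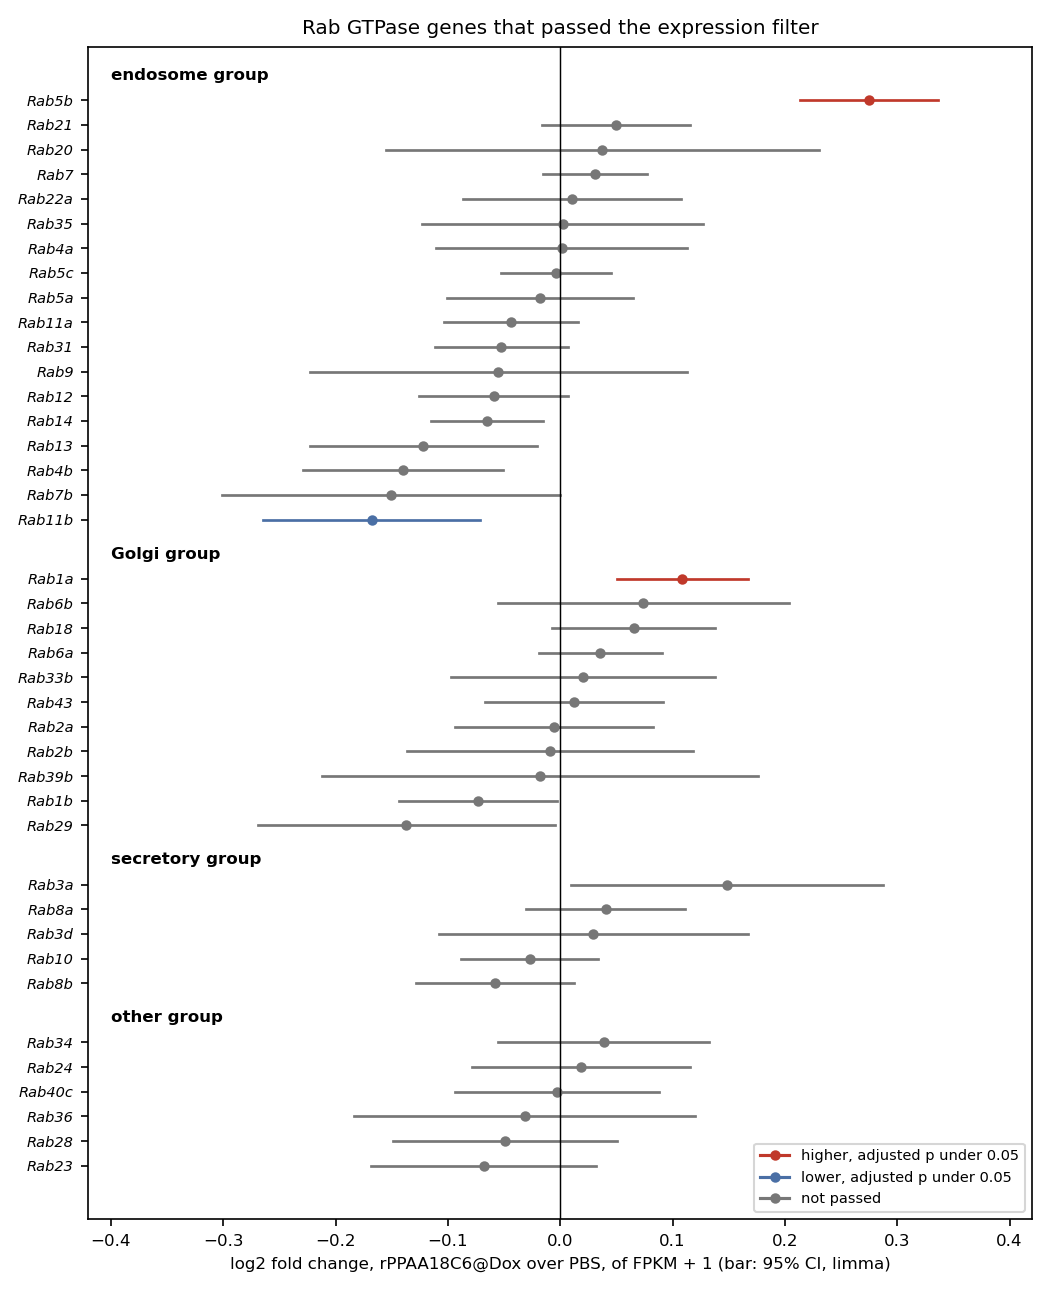
Log2 fold change of FPKM + 1 (rPPAA18C6@Dox over PBS) with its 95% interval from limma for the 40 tested Rab genes, by role group. Rab5b and Rab1a lie above 0 and Rab11b below it at an adjusted p under 0.05, and 37 genes did not pass.

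Secretory Rabs gave no call: 0 of the 5 tested genes passed limma, 1 of them was under an unadjusted p of 0.05, and 0 passed voom with at least 10 reads. Over all tested genes 26.2% were under an unadjusted p of 0.05. Rab10, which carries vesicles to the surface, was the most abundant, with 38.2, 39.8 and 39.2 FPKM in rPPAA18C6@Dox libraries, against 39.9, 40.5 and 39.2 FPKM in PBS libraries (log2 fold change -0.03, 95% interval -0.09 to 0.03). Rab8a, of transport from the Golgi to the surface and of cilia, had 30.3, 30.5 and 31.8 FPKM in treated libraries and 29.6, 29.4 and 30.9 FPKM in PBS libraries (0.04, 95% interval -0.03 to 0.11). These groups overlapped, as they did for Rab3a and Rab3d. Rab8b averaged 15.0 ± 0.311 FPKM in rPPAA18C6@Dox cells and 15.7 ± 0.254 FPKM in PBS cells (SD, n = 3 each), each treated library below each PBS library, and did not pass (-0.06, adjusted p = 0.278 in limma). Rab3a, the synaptic vesicle Rab, had 4.37, 5.06 and 4.26 FPKM in treated libraries and 4.27, 3.82 and 3.95 FPKM in PBS libraries (0.15, SE 0.0622, adjusted p = 0.163 in limma). Rab10 and Rab3a share exon positions with Rab10os and Mpv17l2 on the other strand. Rab3d, of secretory granules, averaged 3.89 ± 0.285 FPKM in rPPAA18C6@Dox cells and 3.79 ± 0.300 FPKM in PBS cells (SD, n = 3 each).

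Genes of other roles gave no call either: 0 of 6 passed limma, 0 were under an unadjusted p of 0.05 (26.2% of all tested genes were), 0 passed voom with at least 10 reads, and all overlapped between groups. Rab34, of cilia and lysosome position, had 34.4, 30.5 and 31.6 FPKM in rPPAA18C6@Dox libraries, against 31.8, 30.4 and 31.5 FPKM in PBS libraries. Rab28, known from photoreceptors, averaged 19.1 ± 0.702 FPKM in rPPAA18C6@Dox cells and 19.8 ± 1.18 FPKM in PBS cells (SD, n = 3 each). Rab24, of autophagy, had 18.5, 17.4 and 19.2 FPKM in treated libraries and 18.7, 18.5 and 17.2 FPKM in PBS libraries. Rab40c, Rab23 and Rab36 had log2 fold changes of -0.003, -0.07 and -0.03.

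Below the filter, Rab15, Rab17, Rab25, Rab33a, Rab37, Rab3b, Rab9b and Rab44 had at most 82 reads in any library. Rab44, of immune cell granules, had 82, 51 and 56 reads in rPPAA18C6@Dox libraries, against 39, 32 and 43 reads in PBS libraries, and did not pass voom (log2 fold change 0.70, adjusted p = 0.0837). Rab17, the epithelial recycling Rab, had 63, 52 and 58 reads in rPPAA18C6@Dox libraries and 40, 40 and 50 reads in PBS libraries and did not pass voom (0.42, adjusted p = 0.312). Of all 49 Rab genes 8 had a p-value under 0.05 in the authors' deposited table, where 17.5% of all 15726 genes did.

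The summed level of the 49 Rab genes overlapped between groups, at 1135, 1126 and 1142 FPKM in rPPAA18C6@Dox libraries, against 1132, 1124 and 1128 FPKM in PBS libraries. The 6 genes of highest FPKM, Rab7, Rab5c, Rab14, Rab1a, Rab1b and Rab6a, made up 50.8% of it. Rab2a, with 4526 to 4873 reads but the long gene length, is not among them, although Rab1b had fewer reads (3346 to 3759). Paralog shares stood apart between groups in the Rab5, Rab1, Rab7, Rab8 and Rab11 subfamilies, 5 of the 11 with over 1 paralog. Shares in other gene families were not worked out, so this count has no background beside it. Rab7 averaged 99.54% of the Rab7 pair in rPPAA18C6@Dox libraries and 99.42% in PBS libraries. Rab8a was 66.7%, 67.5% and 67.5% of the Rab8 pair in rPPAA18C6@Dox libraries and 65.6%, 65.3% and 65.9% in PBS libraries. Rab11b was 15.6%, 13.9% and 14.4% of the Rab11 pair in rPPAA18C6@Dox libraries, against 15.8%, 16.1% and 15.9% in PBS libraries. These shares are given as values, with no test. Of the pigment granule Rabs, Rab27a averaged 85.3 ± 1.12 FPKM in rPPAA18C6@Dox cells and 71.1 ± 3.199 FPKM in PBS cells (SD, n = 3 each) and rose (0.26, adjusted p = 0.00124 in limma), while Rab32 and Rab38 did not pass.

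**Figure D4:**
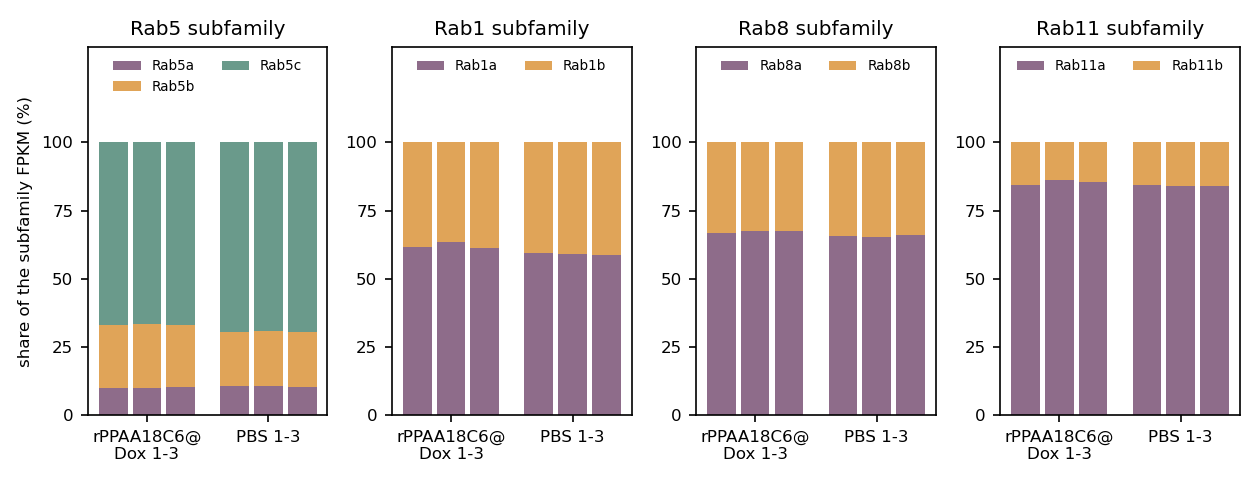
Share of each paralog in the summed FPKM of its subfamily (percent) for the Rab5, Rab1, Rab8 and Rab11 genes, with 1 bar per library. Rab5b holds 22.8% to 23.6% of the Rab5 level in rPPAA18C6@Dox libraries, above its share in every PBS library.

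The proteins that load, switch and read Rabs were taken from 6 lists of known roles, with 130 tested genes. Of these 7 rose, 4 fell and 119 did not pass, which is 8.46% called, against the 9.93% of all tested genes. The list of prenylation and membrane delivery has 9 genes, among them the geranylgeranyl transferase, its escort proteins and the GDI proteins that extract Rabs. Of the 9 genes 0 passed limma and 1 was under an unadjusted p of 0.05, where 26.2% of all tested genes were. Rabggta, the transferase's alpha subunit, had 4.96, 4.70 and 4.05 FPKM in rPPAA18C6@Dox libraries, against 4.15, 3.78 and 3.90 FPKM in PBS libraries and did not pass (adjusted p = 0.124 in limma). Rabif, a chaperone of Rabs, averaged 14.2 ± 0.668 FPKM in rPPAA18C6@Dox cells and 15.1 ± 0.195 FPKM in PBS cells (SD, n = 3 each) and did not pass (adjusted p = 0.208 in limma).

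Of 33 tested exchange factors 2 rose and 1 fell (9.09% called, against 9.93% of all tested genes). Rab3il1, an exchange factor for Rab8, fell, with 1.92, 1.78 and 1.84 FPKM in rPPAA18C6@Dox libraries, against 2.52, 2.39 and 2.60 FPKM in PBS libraries (log2 fold change -0.30, SE 0.0528, adjusted p = 0.00711 in limma). Dennd4a, an exchange factor for Rab10, rose, with 7.04, 6.65 and 6.41 FPKM in rPPAA18C6@Dox libraries, against 5.52, 5.76 and 5.73 FPKM in PBS libraries (0.21, SE 0.0438). Rabgef1 (Rabex-5), which activates Rab5, rose as well, with 15.4, 15.3 and 15.99 FPKM in rPPAA18C6@Dox libraries, against 13.6, 14.3 and 13.1 FPKM in PBS libraries (0.175, SE 0.0380, adjusted p = 0.0195 in limma). Groups did not overlap in any of the 3. The call of Dennd4a was lost in limma without treated replicate 1 (adjusted p = 0.0570) and without PBS replicate 1 (0.0601). That of Rabgef1 was lost without treated replicate 3 or PBS replicate 1 or 3 (adjusted p 0.0580 to 0.0706 in limma).

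Of 31 tested GTPase activating proteins only Tbc1d10a passed (3.23% called, against 9.93% of all tested genes). It had 13.5, 11.5 and 13.0 FPKM in rPPAA18C6@Dox libraries, against 10.8, 11.05 and 10.2 FPKM in PBS libraries (log2 fold change 0.23, SE 0.0565, adjusted p = 0.0341 in limma). Its call was lost in 8 of 15 alternative fits, among them those without treated replicate 1 or 3 or any 1 PBS library (adjusted p up to 0.106). Tbc1d16, which acts on Rab4, had 22.2, 22.3 and 20.9 FPKM in treated libraries and 19.9, 20.2 and 20.8 FPKM in PBS libraries and did not pass (adjusted p = 0.104 in limma). Of 26 tested endosome effectors 1 fell (3.85% called, against 9.93% of all tested genes). This was Inpp5b, a phosphoinositide phosphatase that binds Rab5, with 17.2, 17.2 and 17.2 FPKM in rPPAA18C6@Dox libraries, against 19.5, 19.1 and 20.2 FPKM in PBS libraries (-0.18, SE 0.0312). Rabep1 (Rabaptin-5), a partner of Rabgef1, had 27.2, 27.2 and 27.8 FPKM in treated libraries and 25.6, 25.8 and 26.1 FPKM in PBS libraries and did not pass (0.08, adjusted p = 0.0848 in limma).

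Of 19 tested Golgi effectors and tethers 1 rose and 1 fell (10.5% called, against 9.93% of all tested genes). Their median log2 fold change was 0.05, with 16 positive. Over all 10680 tested genes the median was -0.01, with 4642 positive. Golga2 (GM130), the cis-Golgi tether that binds Rab1, rose, with 24.2, 22.4 and 23.0 FPKM in rPPAA18C6@Dox libraries, against 20.3, 21.8 and 21.0 FPKM in PBS libraries (0.135, SE 0.0374, adjusted p = 0.0496 in limma). Its call was lost in 11 of 15 alternative fits, among them each fit with 1 library left out (adjusted p 0.0515 to 0.136). Kif20a, a kinesin that binds Rab6 and acts in mitosis, fell, with 47.2, 47.8 and 46.1 FPKM in rPPAA18C6@Dox libraries, against 54.4, 53.6 and 53.3 FPKM in PBS libraries (-0.19, SE 0.0253).

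Of 12 tested secretory effectors 3 rose and 1 fell (33.3% called, against 9.93% of all tested genes). Optn (optineurin), an effector of Rab8 and a receptor of selective autophagy, had the largest log2 fold change of the 130 tested machinery genes. It had 21.3, 20.3 and 20.4 FPKM in rPPAA18C6@Dox libraries, against 13.7, 13.1 and 13.4 FPKM in PBS libraries. Every treated library lay above every PBS library, with a log2 fold change of 0.59 (SE 0.0328, adjusted p = 8.40e-06 in limma). Myo5a, the myosin that holds melanosomes through Rab27a, rose, with 90.0, 89.1 and 85.5 FPKM in rPPAA18C6@Dox libraries, against 68.6, 74.2 and 73.8 FPKM in PBS libraries (0.29, SE 0.0346). Sytl2, a Rab27 effector, rose, with 30.5, 29.6 and 29.6 FPKM in rPPAA18C6@Dox libraries, against 25.01, 26.4 and 26.2 FPKM in PBS libraries (0.20, SE 0.0310). Micall2, an effector of Rab13, fell, with 4.88, 4.59 and 4.56 FPKM in rPPAA18C6@Dox libraries, against 5.77, 5.39 and 6.03 FPKM in PBS libraries (-0.25, SE 0.0487), and its call was lost without PBS replicate 3 (adjusted p = 0.0526 in limma). Inpp5b, Rabep1, Golga2, Kif20a, Optn, Tbc1d16 and the Arf GTPase Arf6 each share exon positions with a gene on the other strand, so their reads may be mixed. Among the related Arf GTPases, which bud vesicles, Arl5a and Arf6 fell (-0.15 and -0.12) and 15 of 17 did not pass. The share called was 11.8%, against 9.93% of all tested genes. The call of Arl5a was lost in limma without treated replicate 2 or PBS replicate 1 (adjusted p 0.0527 and 0.0534), and that of Arf6 without treated replicate 3 or PBS replicate 2 or 3 (0.0540 to 0.0765).

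**Figure D5:**
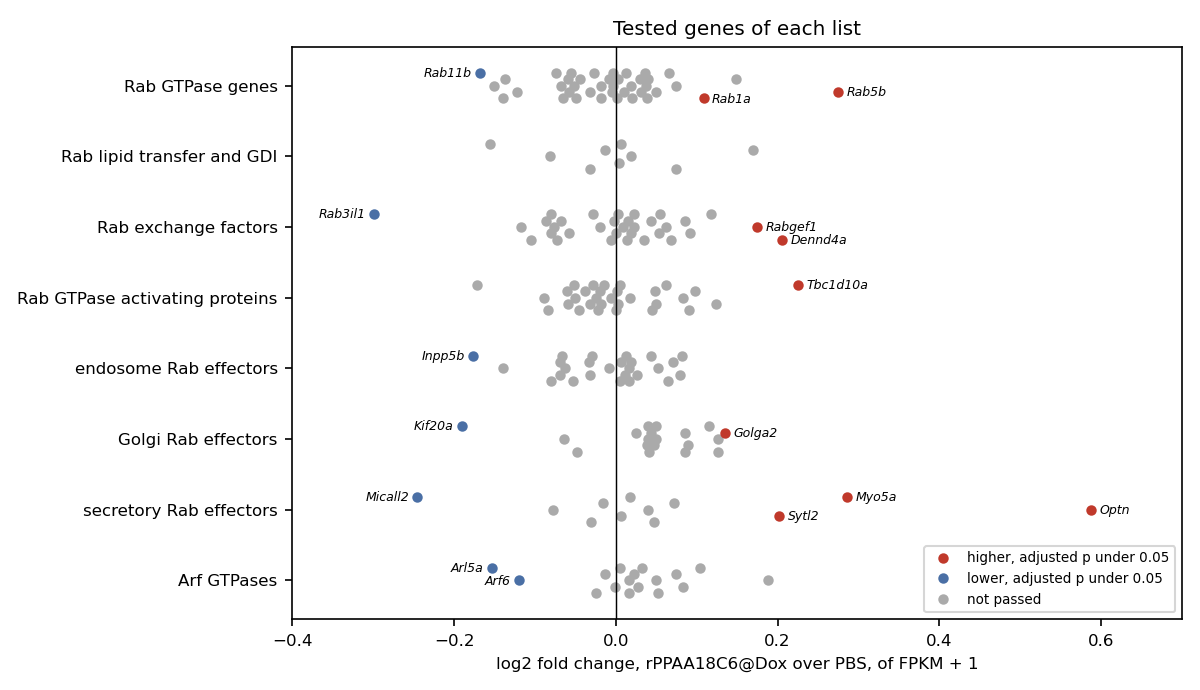
Log2 fold change of FPKM + 1 (rPPAA18C6@Dox over PBS) of every tested Rab gene, of the genes in 6 lists of Rab machinery and of Arf GTPases, with 1 point per gene. Genes past an adjusted p of 0.05 are coloured and named, and Optn lies farthest to the right at 0.59.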

How the data were processed

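The authors deposited 1 table with a value per gene and library and a p-value per gene. The values were read as FPKM, since the header names no unit and, in each gene, the deposited values are multiples of 1 step. Per the submitters' processing notes mm9 was used as the build. The kit is stranded, per the labels' protocols. The sources used here do not name the aligner, the counter, its use of strand or the test behind the authors' p-value. For all 15726 genes 1 factor per gene turned the 6 scaled values into whole reads (tolerance 0.01). These are the smallest whole numbers that keep the ratios, so a true count may be a multiple of them. Replicates differed by more than sampling noise (mean chi-square per gene 2.38 to 3.98).

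Log2(FPKM + 1) was tested in limma 3.58.1 (R 4.3.3) with a mean-variance trend, two-sided, for genes with a mean of at least 1 FPKM in either group. The test was checked on simulated data. Fold changes on this scale understate those of low genes.

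The Rab genes, their role groups, the lists and the motifs were chosen with earlier results of these data known. Named were the Rab genes past the threshold, the 3 of highest FPKM in the endosome, Golgi and secretory groups, the gene of each group nearest to passing, and the 2 genes of each list with the smallest p. The other genes given with values were added after their values were seen. Promoters are from RefSeq (GRCm38.p6). Beside the overlaps given above, exons of Rab11a, Rab18 and Rab43 overlap another gene on their own strand in GENCODE vM21. Those of Rab7, Rab20, Rab22a, Rab24, Rab2b, Rab33b, Rab39b, Rab3b and Rab40c overlap a gene on the other strand. Rab7 also has an annotated pseudogene, Rab7-ps1. Reads of these genes may be mixed.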

Additional observations from a re-analysis of the deposited data

How the results depend on the processing

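Rab5b stayed past the threshold in all 15 alternative fits (adjusted p 8.36e-09 to 0.00331 in limma), whereas Rab1a and Rab11b were each lost in 8 of 15. The count of 3 Rab genes became 1 without a filter on low values, 1 without the trend and 1 with the replicate block, and was 1 to 3 with 1 library left out. It became 4 of 32 with a mean of at least 5 FPKM (12.5%, against 13.2% of all tested genes). With voom and a mean of at least 10 reads it was 4 of 48. The 11 machinery genes became 7 without a filter, 19 with voom on the recovered reads and 18 with voom and a mean of at least 10 reads (this last setting added after the data were seen), and were 7 to 10 with 1 library left out. The 1060 genes called over the table became 681 without a filter, 1636 with voom and 1620 with voom and at least 10 reads, and were 600 to 749 with 1 library left out. With the replicate block 825 genes were called, 9 of them machinery genes, and Rab1a (adjusted p = 0.0596 in limma) and Rab11b (0.0570) were lost. Deviations from the group means had correlations of -0.002, 0.055 and -0.021 in same-numbered libraries, and of -0.062 to 0.06 in the others. With 3 libraries per group these values cannot settle whether the numbers pair the libraries. Without a filter Dennd4a (adjusted p = 0.0510 in limma) and Rabgef1 (0.0507) were also lost. Among the genes named by the rule only Rab5c changed sign, to 0.0001 without rPPAA18C6@Dox replicate 1 and to 0.0049 without PBS replicate 2, within a range of -0.0108 to 0.0049 with 1 library left out. Rab4b passed with a mean of at least 5 FPKM (adjusted p = 0.0398 in limma) and without PBS replicate 2 (0.0402). The cause of these changes was not tested.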
